A study of Homo sapiens with 3 samples.

Results

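The genes described here are 9 genes of peroxisomal fatty acid oxidation: AMACR, ACOX2, ACOX3, HSD17B4, EHHADH, ACAA1, SCP2, PEX5 and CAT. They were taken by symbol, matched through the Ensembl identifiers of the files, and all 9 were found among 58302 genes, 19708 of them protein-coding. Total RNA was sequenced from 3 replicate libraries of C4-2, a descendant of the LNCaP prostate cancer line that is labelled as adenocarcinoma and wild type, with no treatment named in the labels. The libraries held 47513470 to 51200272 assigned reads. They form 1 group, so no contrast between conditions was possible. Whether they came from separate cultures is not given in the labels, so the p-values below speak of the scatter among 3 libraries, part or all of which can be technical.

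Peroxisomes shorten very long chain and branched fatty acids and the side chains of bile acid precursors, substrates that mitochondria handle poorly. An acyl-CoA oxidase takes the first step and releases hydrogen peroxide, a multifunctional enzyme takes the next steps and a thiolase cuts the chain. AMACR, a racemase, flips the methyl group of branched substrates into the form the oxidases accept, and it is a tissue marker used in the diagnosis of prostate cancer. Catalase destroys the hydrogen peroxide that the oxidases make, and PEX5 is the receptor that carries most matrix enzymes into the peroxisome.

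Most of these enzymes end in a short carboxy-terminal signal that PEX5 reads, known as peroxisomal targeting signal type 1. The coding ends below are shown because most enzymes of this set, though not ACAA1, carry this signal there. Each is the last 30 coding bases of the canonical transcript in GENCODE release 44 (GRCh38), with the last 9 bases before the stop codon in capitals.
AMACR, chr5:33989093-33989122, minus strand: gaaagtaataaggtaaaaGCTAGTCTCtaa
ACOX2, chr3:58505224-58505253, minus strand: cttttacaaagttggagaTCCAAGCTAtga
ACOX3, chr4:8366961-8366990, minus strand: gtcataggaagtctgaaaTCGAAGCTCtag
HSD17B4, chr5:119541965-119541994, plus strand: atgattcttaaagactacGCCAAGCTCtga
EHHADH, chr3:185192226-185192255, minus strand: ttggcaggctcccctagcAGTAAATTGtga
SCP2, chr1:53050675-53050704, plus strand: cagcttcagccaggcaacGCTAAGCTCtga
CAT, chr11:34471404-34471433, plus strand: ttggcggcaagggagaagGCAAATCTGtga
ACAA1, chr3:38123047-38123076, minus strand: gctgccgtctttgaatacCCTGGGAACtga
PEX5, chr12:7210194-7210223, plus strand: ctcctaactatgtttggcCTGCCCCAGtga
The letters NCNAAGCTN, a pattern written down after the ends had been read and sought on the coding strand only, closed 4 of the 9 coding sequences (ACOX2, ACOX3, HSD17B4 and SCP2), and 23 of 19924 canonical coding sequences (0.115%). The match is a description of these letters, and EHHADH, AMACR and CAT carry their targeting signals in other letters. ACAA1 is imported through a signal near its amino terminus that the receptor PEX7 reads, and PEX5 itself is a receptor that cycles through the cytosol.

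All 9 genes were detected (10 or more reads in each of the 3 libraries), against 71.8% of protein-coding genes. All 9 also had a mean of at least 1 TPM (a level corrected for exon length and sequencing depth), against 62.7% of protein-coding genes. Their levels ran from 5.71 to 67.3 TPM, with a median log2(TPM + 0.1) of 4.84 ± 0.0452 (SD, n = 3), compared with 2.46 over all protein-coding genes and 3.99 over the detected ones. The values below are TPM over merged exon length, as mean ± SD of n = 3 libraries.

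**Figure D1:**
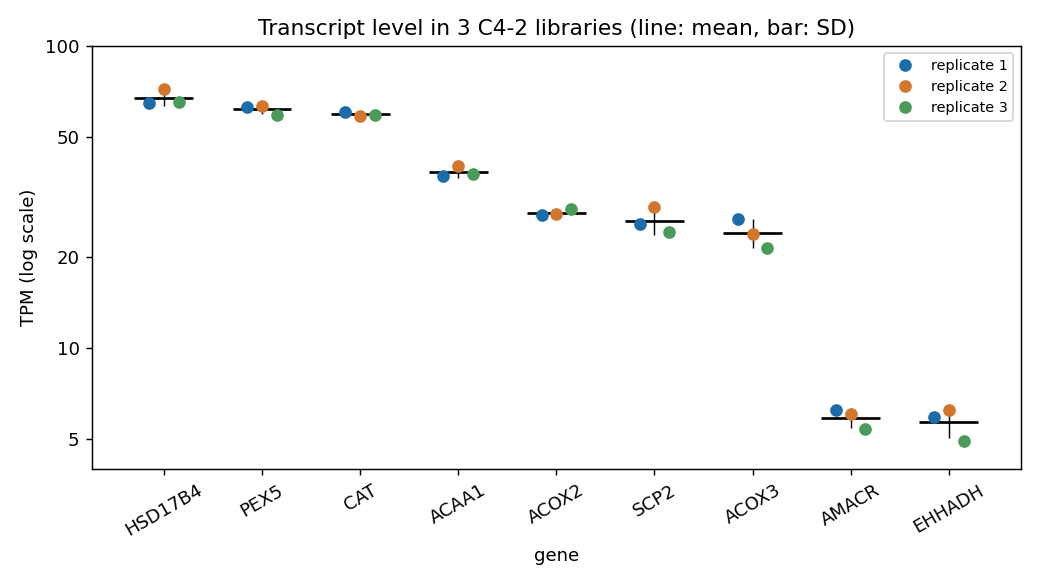
Transcript level (TPM, log scale) of the 9 genes in each C4-2 library; points are libraries, lines are means and bars are SD. HSD17B4, PEX5 and CAT lie at 58.6 TPM or more in every library, and AMACR and EHHADH at 6.24 TPM or less.

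AMACR, the racemase, had 507, 452 and 437 reads in replicates 1, 2 and 3, or 6.24, 6.07 and 5.41 TPM. Replicate 3 was the lowest, and the mean of 5.91 ± 0.439 TPM ranked at percentile 50.9 among protein-coding genes. Within each library AMACR lay below the median of the other 8 genes, by a log2 difference of −2.47 ± 0.122 (5.53-fold lower, 3 of 3 libraries, exact two-sided sign-flip p = 0.25, adjusted over 6 differences 0.25). A p of 0.25 is the smallest that 3 libraries allow. The size of this difference depends on the length used: it was −1.26 per unshared exon base and −3.55 per base of the canonical transcript.

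The annotation around AMACR bears directly on its count. AMACR lies on chromosome 5 (33986178 to 34008108, minus strand, GRCh38), and 64.8% of its 4838 exon bases are also annotated as exons of other genes. C1QTNF3-AMACR, a readthrough gene that joins the neighbouring C1QTNF3 to AMACR on the same strand, covers 2660 of these bases, and a processed pseudogene covers 475. Of the 5 exons of the canonical AMACR transcript, exons 2 and 4 are wholly shared and exon 5, the longest at 3338 bases, is 69.8% shared, whereas exons 1 and 3 are not shared. Of the coding bases, 64.4% are shared, and of the canonical transcript bases 64.75%. The canonical length, unlike the unshared length, thus makes no allowance for the sharing. Under the counting options recorded in the files, a read that touches exons of more than 1 gene is assigned to none. The readthrough gene itself held 3, 11 and 14 reads (0.169 ± 0.102 TPM), and 96.8% of its own exon bases are shared. C1QTNF3 held 30, 47 and 53 reads (0.747 ± 0.215 TPM).

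Set against its unshared exon bases, with every gene scaled in the same way, AMACR reached 16.9, 16.4 and 14.6 TPM, with a mean of 16.0 ± 1.18. All 3 libraries then lay above the highest EHHADH value (6.30 TPM) and below the lowest ACOX3 value (20.4 TPM). Reads that run from an unshared into a shared exon are still assigned to none. Exon 3 of AMACR lies between exons 2 and 4, which are wholly shared. The unshared value can therefore still be too low, and the place of AMACR below ACOX3, which shares no exon base, is not secure. Few genes share so much: 926 protein-coding genes (4.70%) have at least 50% of their exon bases in common with another gene, and AMACR is the only such gene among the 9.

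**Figure D2:**
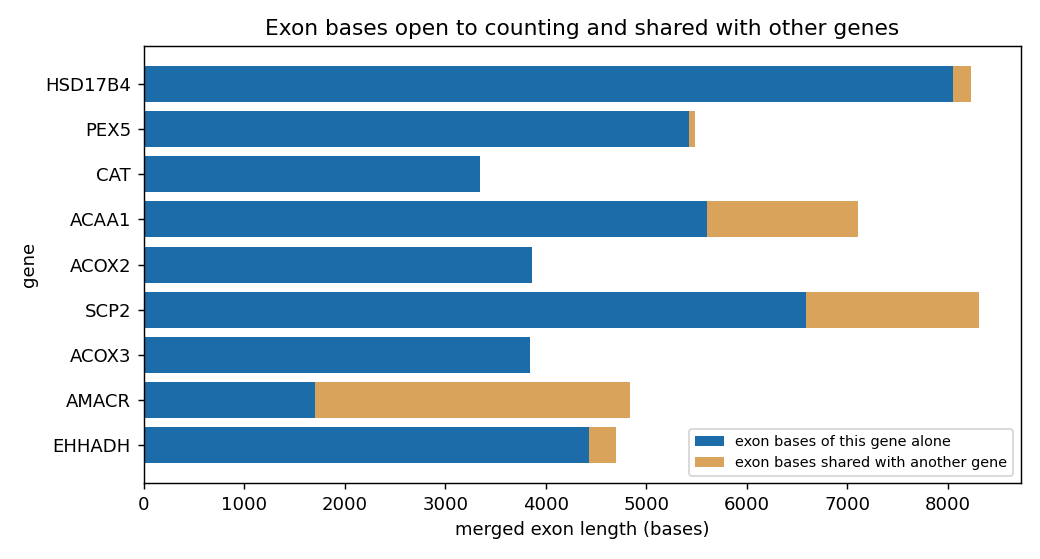
Merged exon length (bases) of each gene, split into bases annotated to that gene alone and bases shared with another gene, with genes ordered by mean TPM. AMACR has 1703 of 4838 bases to itself; ACAA1 and SCP2 share 21.2% and 20.7%, and ACOX2, ACOX3 and CAT share none.

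The base sequence upstream of AMACR is given because the racemase is the gene for which this set is best known in prostate cancer. The 250 bases before its RefSeq start (GRCh38.p14), with a CCAAT box in capitals, read as follows.
AMACR, chr5:34008051-34008300, minus strand: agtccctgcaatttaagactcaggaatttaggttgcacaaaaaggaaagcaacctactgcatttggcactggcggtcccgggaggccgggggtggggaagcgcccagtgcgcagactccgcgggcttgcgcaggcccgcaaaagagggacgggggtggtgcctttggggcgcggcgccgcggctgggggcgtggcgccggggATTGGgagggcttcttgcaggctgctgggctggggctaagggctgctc
The box (CCAAT, sought on both strands) is present once, in reverse, and 32.0% of 35116 upstream windows of the same length hold at least 1. Starts were listed for 6 of the 9 genes, 10 starts in all. None of the 10 windows held the TATA box letters TATAAA, sought on both strands, which 10.7% of all windows hold.

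The acyl-CoA oxidases for branched substrates were at similar levels. ACOX2, which oxidises bile acid intermediates and branched fatty acids, had 1790, 1651 and 1856 reads, or 27.6, 27.8 and 28.8 TPM (mean 28.1 ± 0.640). ACOX3, which acts on methyl-branched fatty acids, had 1727, 1420 and 1376 reads, or 26.7, 24.0 and 21.4 TPM (mean 24.0 ± 2.66). ACOX2 exceeded ACOX3 in 3 of 3 libraries, but by a log2 difference of only 0.05 in replicate 1 and 0.43 in replicate 3, and 0.23 ± 0.190 on average (exact sign-flip p = 0.25, adjusted 0.25). ACOX2 is annotated on chromosome 3 (58505136 to 58537319, minus strand) and ACOX3 on chromosome 4 (8366282 to 8440723, minus strand), and neither shares an exon base.

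The multifunctional enzymes were far apart in level. HSD17B4 encodes the D-bifunctional protein, which hydrates and dehydrogenates branched, very long chain and bile acid substrates, and it was the highest of the 9 genes. It had 8935, 9106 and 8996 reads, or 64.7, 71.8 and 65.5 TPM (mean 67.3 ± 3.93), with replicate 2 the highest. EHHADH encodes the L-bifunctional protein, which acts on straight-chain and dicarboxylic acids, and it had 469, 452 and 389 reads, or 5.94, 6.24 and 4.96 TPM (mean 5.71 ± 0.674). The groups of values did not approach each other, and the log2 difference was 3.54 ± 0.141 (11.6-fold higher for HSD17B4, 3 of 3 libraries, exact sign-flip p = 0.25, adjusted 0.25). Per base of the canonical transcript it was 4.87. HSD17B4 lies on chromosome 5 (119452443 to 119637199, plus strand) and shares 2.21% of its exon bases with FAM170A (0 reads in every library). EHHADH lies on chromosome 3 (185190624 to 185281990, minus strand) and shares 5.72% with its antisense neighbour EHHADH-AS1, also at 0 reads.

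The thiolases came next. ACAA1 encodes the thiolase for straight-chain substrates and had 4428, 4371 and 4462 reads, or 37.1, 39.9 and 37.6 TPM (mean 38.2 ± 1.51). SCP2 had 3585, 3758 and 3358 reads, or 25.7, 29.4 and 24.2 TPM (mean 26.4 ± 2.66), with replicate 2 the highest for both genes. SCP2 lay below ACAA1 in 3 of 3 libraries, by −0.53 ± 0.0958 on the log2 scale (exact sign-flip p = 0.25, adjusted 0.25), and by −1.01 per base of the canonical transcript. ACAA1 (chromosome 3, 38103129 to 38137242, minus strand) shares 1403 exon bases with DLEC1, which runs on the opposite strand and held 455, 394 and 470 reads, and the last exon of its canonical transcript is wholly shared. SCP2 (chromosome 1, 52927229 to 53051703, plus strand) shares 20.7% of its exon bases with the pseudogenes TUBBP10 and RRAS2P1, none of them in its canonical transcript.

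SCP2 is also a gene with 2 products. Its upstream start gives the long sterol carrier protein X, which carries the thiolase for branched substrates, and an internal start gives the short sterol carrier protein 2, a lipid carrier without the thiolase. The deposited counts add both, so the SCP2 value is not a value of the thiolase alone. The upstream windows are shown because they differ in composition, with GC boxes (GGGCGG on either strand) in capitals.
SCP2 upstream start, chr1:52927026-52927275, plus strand: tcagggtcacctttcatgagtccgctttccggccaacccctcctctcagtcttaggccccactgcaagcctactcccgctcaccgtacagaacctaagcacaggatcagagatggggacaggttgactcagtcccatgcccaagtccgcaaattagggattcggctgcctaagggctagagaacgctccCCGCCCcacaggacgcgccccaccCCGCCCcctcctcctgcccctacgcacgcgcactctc
SCP2 internal start, chr1:53014687-53014936, plus strand: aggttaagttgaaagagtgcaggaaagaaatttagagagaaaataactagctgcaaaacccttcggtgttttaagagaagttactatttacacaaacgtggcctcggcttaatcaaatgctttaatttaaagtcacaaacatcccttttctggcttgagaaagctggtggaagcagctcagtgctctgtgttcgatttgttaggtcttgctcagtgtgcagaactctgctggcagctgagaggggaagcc
The upstream window holds 2 GC boxes and 14 CpG dinucleotides at 62.4% GC. The internal window, 87661 bases further along the gene, holds no GC box and 4 CpG at 42.8% GC. Over all windows 42.6% hold a GC box and the median number of CpG is 11.

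PEX5, the import receptor, was nearly as high as HSD17B4. It had 5806, 5332 and 5409 reads, or 63.0, 63.1 and 59.0 TPM (mean 61.7 ± 2.32), and lies on chromosome 12 (7188685 to 7218574, plus strand). PEX7, the receptor for the amino-terminal signal that ACAA1 carries, was at 12.7 ± 1.70 TPM. PEX5 exceeded PEX7 by 2.27 ± 0.183 on the log2 scale (4.84-fold, 3 of 3 libraries, exact sign-flip p = 0.25, adjusted 0.25). TYSND1, the protease that trims several imported oxidation enzymes, lay at 65.5 ± 3.02 TPM.

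CAT, the catalase gene, had 3411, 3020 and 3315 reads, or 60.7, 58.6 and 59.3 TPM (mean 59.5 ± 1.07). Its 3 values spanned a narrow range, and their mean ranked at percentile 87.4 among protein-coding genes. CAT lies on chromosome 11 (34438925 to 34472062, plus strand) and shares no exon base. Its upstream window is shown because it holds an unusual number of CCAAT boxes, in capitals with 1 GC box.
CAT, chr11:34438684-34438933, plus strand: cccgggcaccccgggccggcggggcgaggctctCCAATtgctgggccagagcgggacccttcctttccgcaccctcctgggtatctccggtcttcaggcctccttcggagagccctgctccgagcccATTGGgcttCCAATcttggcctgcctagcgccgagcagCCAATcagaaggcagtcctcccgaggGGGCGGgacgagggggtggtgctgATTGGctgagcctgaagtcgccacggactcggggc
The window holds 5 CCAAT boxes on either strand, and 112 of 35116 windows (0.319%) hold at least 5. The boxes do not overlap each other or the GC box.

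In order of mean TPM the genes ran HSD17B4, PEX5, CAT, ACAA1, ACOX2, SCP2, ACOX3, AMACR and EHHADH. The ranges of neighbours overlapped for PEX5 and CAT, for ACOX2 and SCP2, for SCP2 and ACOX3, and for AMACR and EHHADH, so those neighbours were not told apart by their spread. Per unshared exon base, only PEX5 and CAT overlapped among neighbours, and SCP2 passed ACOX2. Per base of the canonical transcript, HSD17B4 lay at 140.2 ± 8.11 TPM, ACAA1 at 106 ± 4.15 TPM and SCP2 at 52.9 ± 5.26 TPM, and ACAA1 took the second place. The merged exons of these genes span 8231, 7106 and 8305 bases, and their canonical transcripts 2628, 1699 and 2759 bases.

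**Figure D3:**
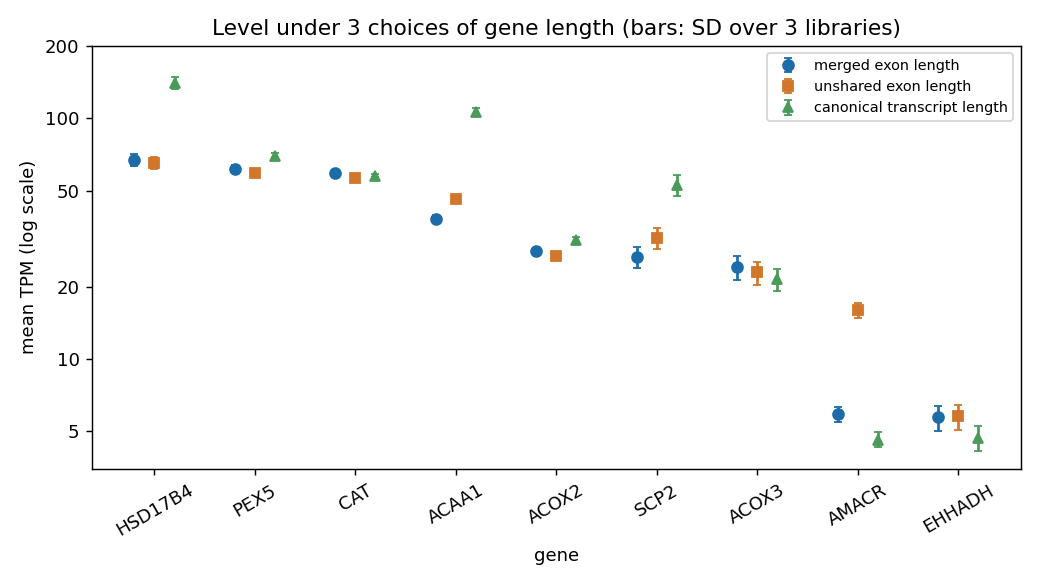
Mean TPM (log scale) of the 9 genes under merged exon length, unshared exon length and canonical transcript length; bars are SD over 3 libraries. AMACR moves from 5.91 to 16.0 TPM with unshared length, and ACAA1 from 38.2 to 106 TPM with canonical length.

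The spread between libraries was small for most of the 9 genes. A chi-square test of homogeneity against TMM library sizes, with Benjamini-Hochberg adjustment over all detected genes, called 5 of 9 genes at an adjusted p under 0.05, against 46.1% of detected genes, so the share is near the background. ACOX3 had normalised counts of 1674, 1465 and 1377, a ratio of 1.22 between the highest and the lowest (chi-square adjusted p = 1.78e-06). SCP2 had 3475, 3877 and 3361, a ratio of 1.15 (chi-square adjusted p = 2.85e-08), and HSD17B4 8661, 9395 and 9004, a ratio of 1.08 (chi-square adjusted p = 3.59e-06). ACOX3 was highest in replicate 1, and SCP2 and HSD17B4 in replicate 2. EHHADH (ratio 1.20) and CAT (ratio 1.06) passed narrowly, at chi-square adjusted p = 0.0442 and 0.0450. AMACR, ACOX2, ACAA1 and PEX5 did not pass, at chi-square adjusted p = 0.286, 0.0517, 0.0921 and 0.186.

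The recorded options count each mate of a read pair by itself, whether the libraries were paired-end is not given in the sources used here, and the test takes each read as independent. Of nonzero counts in genes with at most 20 reads in every library, 79.7% were even, against 53.8% of counts between 100 and 1000. With the statistic divided by 2, which allows for paired mates, the 3 genes ACOX3, SCP2 and HSD17B4 passed, against 17.6% of detected genes (chi-square adjusted p = 0.00458, 0.000709 and 0.00624). Without replicate 1, 2 or 3 the test called 33.7%, 24.7% or 24.6% of detected genes. HSD17B4 passed whichever library was left out. SCP2 did not pass without replicate 2 (chi-square adjusted p = 0.319), and ACOX3 did not pass without replicate 1 (0.205). EHHADH did not pass without replicate 2 (0.0808) or 3 (0.822), and CAT did not without replicate 2 (0.942) or 3 (0.0648), whereas ACOX2 passed without replicate 1 (0.0337). Each of the 9 had an SD of log2 CPM between 0.0282 (PEX5) and 0.144 (ACOX3), with a median of 0.0658, and the median over detected protein-coding genes was 0.0841. These medians are not matched for level, and counting error is larger where reads are few. The 9 had at least 389 reads in every library, whereas detection asks for only 10.

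**Figure D4:**
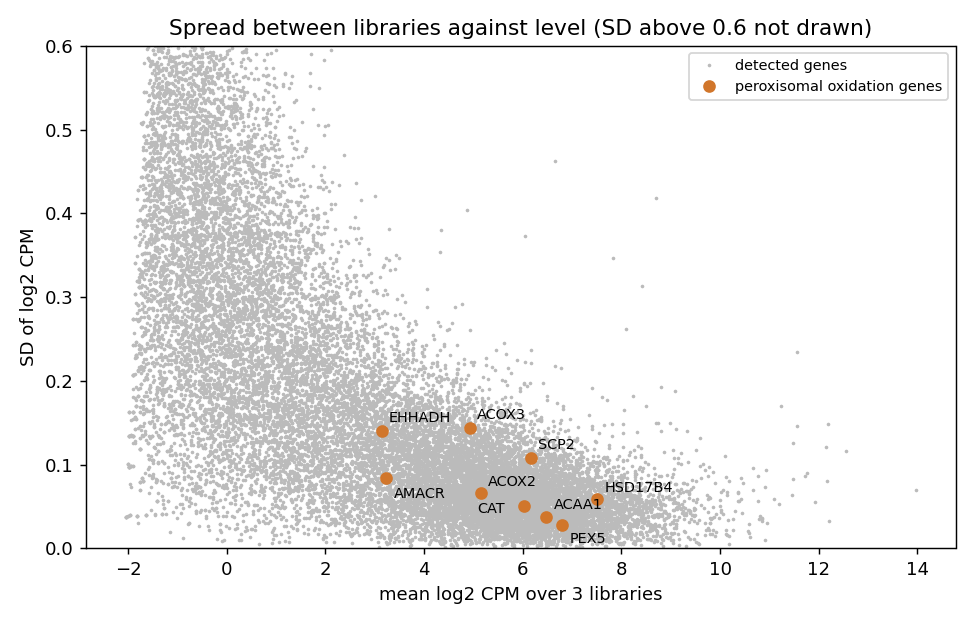
SD of log2 CPM between the 3 libraries against mean log2 CPM for all detected genes (grey) and the 9 genes (orange, named); 1022 genes with an SD above 0.6 are not drawn. The 9 genes lie between 0.0282 and 0.144.

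Other genes of the peroxisome were mostly present. Of 22 other genes listed under peroxisomal lipid breakdown, 18 were detected, with a median log2(TPM + 0.1) of 4.54 ± 0.125. The list is broad and also holds genes without a direct step in lipid breakdown, such as the protease gene TYSND1. A place in it does not show where in the cell a product acts. The highest were ECH1, a dienoyl-CoA isomerase, at 258 ± 13.9 TPM and NUDT19, a coenzyme A hydrolase, at 132 ± 3.43 TPM. In ECH1 16.3% of exon bases belong to another gene as well. Not detected were the transporter gene ABCD2 with 2, 0 and 2 reads, the bile acid conjugating gene BAAT with 8, 4 and 9, NUDT7 with 5, 9 and 30, and ACOT4 with 0 in every library. A count of 0 allows up to 3 reads, or 0.0631 CPM in the smallest library, or 6 reads (0.126 CPM) where paired mates were counted singly, and these limits cover counting error only.

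All 16 genes of peroxisome biogenesis were detected, and 15 reached 1 TPM. They were led by PEX16, a membrane biogenesis factor, at 66.9 ± 0.956 TPM, by PEX10, a ubiquitin ligase subunit of the receptor export machinery, at 46.8 ± 2.41 TPM, and by PEX14, the docking partner of PEX5, at 37.3 ± 1.56 TPM. In PEX10 39.1% of exon bases are also annotated to another gene. The gene below 1 TPM was PEX5L, a relative of PEX5 found mainly in brain, at 0.210 ± 0.0646 TPM.

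Of 5 other genes listed under peroxide and redox enzymes all were detected, and PRDX5 and IDH1 lay above CAT. Transcript levels do not show what share of these products lies in peroxisomes. The levels were led by PRDX5, a peroxiredoxin, at 366 ± 9.14 TPM, IDH1, which supplies NADPH in cytosol and peroxisomes, at 189.6 ± 10.4 TPM and GSTK1 at 36.9 ± 0.359 TPM. Of 6 oxidases for other substrates, 4 were detected: the polyamine oxidase gene PAOX at 13.1 ± 1.10 TPM, DDO at 2.20 ± 0.751 TPM, PIPOX at 1.35 ± 0.193 TPM and HAO2 at 1.28 ± 0.267 TPM. DAO had 0, 5 and 0 reads and HAO1 2, 0 and 0. Ether lipid synthesis, which begins in peroxisomes, had 4 of 4 genes detected, with FAR1 at 33.5 ± 4.33 TPM, GNPAT at 27.0 ± 0.816 TPM and AGPS at 11.8 ± 1.33 TPM.

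Mitochondrial beta-oxidation, the parallel route for shorter chains, had all 19 listed genes detected. They were led by the hydratase gene ECHS1 at 586 ± 6.27 TPM, the very long chain dehydrogenase gene ACADVL at 273 ± 5.47 TPM and CPT1A, the carnitine transferase that gates entry into mitochondria, at 173 ± 7.04 TPM. The median of the 9 peroxisomal genes lay −0.16 ± 0.0740 log2 units from the mitochondrial median, lower in 3 of 3 libraries (exact sign-flip p = 0.25, adjusted 0.25), and the direction turned to 0.05 ± 0.110 per unshared exon base. The muscle carnitine transferase gene CPT1B was the lowest of the list at 0.944 ± 0.256 TPM. Of its exon bases, 66.4% are also annotated to another gene, near the 64.8% of AMACR.

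**Figure D5:**
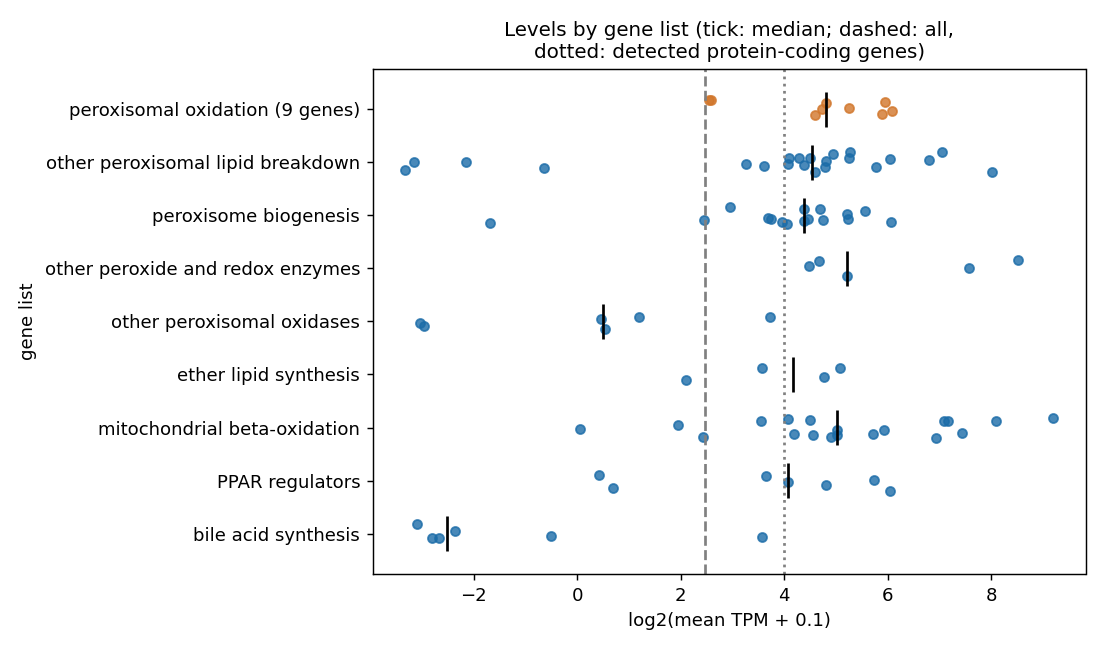
Levels as log2(mean TPM + 0.1) of every gene in each list; ticks are list medians, and the vertical lines are the medians of all (2.46, dashed) and detected (3.99, dotted) protein-coding genes. Over merged exon length, 7 of the 9 peroxisomal oxidation genes lie above the dotted line, and AMACR and EHHADH lie between the lines. Per unshared exon base AMACR and EHHADH were apart, at 16.0 ± 1.18 TPM and 5.77 ± 0.679 TPM.

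Among regulators, 7 of 7 genes of the PPAR group were detected. RXRA, the dimer partner, lay at 65.8 ± 0.173 TPM, PPARD at 53.2 ± 2.31 TPM and RXRB at 28.0 ± 0.490 TPM. PPARA, the receptor that drives peroxisomal oxidation genes in liver, lay at 12.5 ± 0.562 TPM. Bile acid synthesis was mostly undetected, with 1 of 6 listed genes passing, SLC27A5 at 11.8 ± 0.797 TPM. CYP7A1, the rate-limiting enzyme, had 4, 4 and 0 reads, CYP27A1 2, 4 and 8, CYP8B1 2, 7 and 0, CYP7B1 0, 0 and 2, and AKR1D1 8, 42 and 40.

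Markers of the labelled cell type were present and those of other cells were low. All 7 luminal prostate markers were detected, among them KRT8 at 221 ± 3.89 TPM, FOLH1 at 425 ± 28.2 TPM and KLK3 at 1440 ± 26.3 TPM. Of 7 stromal, endothelial and blood markers only LYZ was detected (1.28 ± 0.178 TPM), the summed level of the list was 1.12 to 1.53 TPM, and COL1A2 and CD3E had 0 reads. Of 5 hepatocyte markers, TTR (2.48 ± 0.528 TPM) and APOA1 (1.12 ± 0.234 TPM) were detected, ALB had 0, 0 and 8 reads, SERPINA1 4, 2 and 0, and FGB 0, 0 and 2.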

How the data were processed

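RNA of 3 C4-2 libraries was depleted of ribosomal RNA and built into libraries with a strand-specific kit, per the labels' protocols. The deposited values are raw counts of reads per gene, made by the authors with featureCounts 1.6.3 over Ensembl release 90 exons on GRCh38, per the file headers; the options recorded there set neither strand nor read pairs. STAR 2.7.0f, Trim Galore and FastQC are named in the submitters' processing notes. Symbols came from GENCODE release 44 (57532 of 58302 identifiers, 98.7%). TPM was computed from counts and merged exon length; unshared length counts bases annotated to no other gene on either strand. Detection means at least 10 reads in every library. TMM factors came from edgeR 4.0.16 (R 4.3.3) and alternative size factors from DESeq2 1.42.0. The homogeneity test was tried on simulated counts with counting error and set changes only, without paired mates or other spread between libraries. Differences within libraries used exact two-sided sign-flip permutation tests with Benjamini-Hochberg adjustment over 6. Other work used Python 3.11.15, numpy 2.4.6, pandas 2.3.3, scipy 1.17.1 and matplotlib 3.10.9. Sequences came from RefSeq (GRCh38.p14) and GENCODE. The genes and lists were chosen with earlier results of these data known. Named genes are the 9, PEX7, TYSND1, the 3 highest of each pathway list, genes under 10 reads in some library, and genes overlapping the 9; others (PPARA, CPT1B, PEX5L, C1QTNF3, HAO2) were named after their values were seen. Some listed genes are not reported here by name.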

Additional observations from a re-analysis of the deposited data

How the results depend on the processing

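No paired analysis was possible because all 3 libraries belong to 1 group. The number of the 9 genes that varied between libraries was 5 with TMM, with DESeq2 size factors and with total reads (ACAA1 at chi-square adjusted p = 0.0353 in place of CAT at 0.188), 3 with the statistic divided by 2, 3 when all genes with at least 1 read were tested (38.2% of all genes tested were then called), and 2 to 5 when each library was left out in turn (24.6% to 33.7% called). The share of all genes called was thus lower in these settings too, against 46.1%, and 17.6% with the statistic divided by 2. Where more genes or fewer libraries were tested, the adjustment itself changed. The difference between the peroxisomal and the mitochondrial median reversed to 0.0496 per unshared exon base, and without single libraries it ran from −0.19 to −0.12. The other 5 differences kept their direction under every alternative run. TPM over protein-coding nuclear genes alone raised all 9 levels 1.52-fold; canonical length, an alternative chosen after seeing the data, changed them 0.783- to 2.78-fold, and unshared length multiplied the level of AMACR most. Each of the 9 had at least 389 reads in every library. Depth limits the listed genes with few reads, those under 10 and others such as APOA1, PEX5L, LYZ and HAO2, whose counting error was 16.0% to 19.6% of the mean count.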
